A study of Homo sapiens with 4 samples.

Results

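The regions described here were peaks called away from gene promoters in the c-MYC antibody library of AMG510-treated MIA PaCa-2 cells. They had no counterpart in the c-MYC peak list of cells given the solvent DMSO. A peak is a stretch of genome where sequenced fragments pulled down by an antibody piled up above the background. A peak of the AMG510 list was a member when its summit lay more than 1 kb from the transcription start site (TSS) of every protein-coding transcript in GENCODE and when it shared no base with a peak of the DMSO c-MYC list. Members numbered 7136 of the 10378 peaks in the AMG510 list and of the 28327 peaks in all 4 lists of the series. They made up 94.3% of the 7570 AMG510 peaks outside promoters, a share that the rule itself fixes. In the other direction, 4501 of the 4931 DMSO c-MYC peaks outside promoters overlapped no AMG510 peak. Of the 2808 AMG510 peaks at promoters, 1257 overlapped no DMSO c-MYC peak. Lack of overlap between the 2 lists was thus not particular to members, although it was less frequent among AMG510 peaks at promoters. Both parts of the rule are measured positions, so the number of members, their absence from the DMSO list and their distance from promoters are a description.

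MIA PaCa-2 is an established human line of pancreatic ductal adenocarcinoma (PDAC), and all 4 libraries came from this line after 8 h of treatment. Cells received DMSO, the inhibitor AMG510 at 100 nM or the MEK inhibitor trametinib at 10 nM. A c-MYC antibody was used for 1 chromatin immunoprecipitation sequencing (ChIP-seq) library per treatment, and DMSO cells had 1 more pulled down with non-specific immunoglobulin G (IgG). No group was replicated, so differences below are between single libraries, carry no p-value, and their 95% intervals cover counting error only. The depth recovered from the lists was 22700000 to 24800000 tags per library, with 24300000 for AMG510. Both mates of a read pair can count as tags, which makes counting intervals too narrow. IgG was run in DMSO cells alone, so that no control pulldown from AMG510-treated cells entered these comparisons.

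The transcription factor MYC binds DNA as a dimer with MAX. Its canonical site is the E-box CACGTG, and CACGCG is a known lower-affinity form. In proliferating tumor cells MYC is found mostly at active promoters, and it also occupies enhancers and the starts of noncoding RNA genes. A peak list can further hold places where repeats, copy number or open chromatin gather fragments without the antibody's target, which is what an IgG library is made to show.

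**Figure D1:**
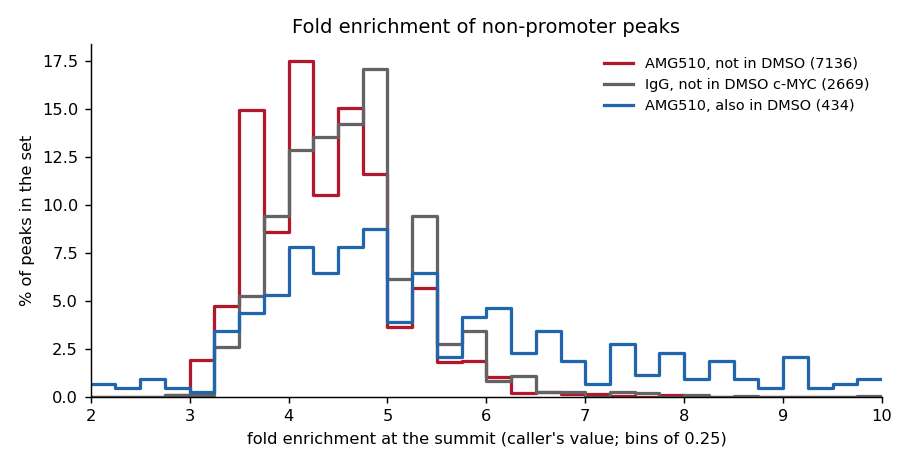
Distribution of the caller's fold enrichment at the summit (horizontal axis, bins of 0.25) as the percent of peaks in each set (vertical axis). The 7136 members (red) and the 2669 IgG peaks chosen by the same rule (grey) fill the same low range, with medians of 4.31 and 4.54, while the 434 AMG510 non-promoter peaks also present in DMSO (blue) spread to high values, 9.22% of them at 10 or more and outside the axis.

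Sequences are printed from GRCh38, plus strand, 5′ to 3′, in lower case with CACGTG in capitals, and no single one stands for the set. The first group shows the surroundings of the E-box in the 4 members that held CACGTG within 100 bp of the summit and also overlapped a peak of the trametinib c-MYC list. They are named by the protein-coding gene they lie in or else by the nearest protein-coding TSS, and no link to these genes was tested. That TSS was 8482 bp away for MSL1, 131811 bp for TBL1XR1 and 31996 bp for PLEKHG6. The member named by MSL1 lies in an exon of a gene that is not protein-coding. Its printed E-box is within 100 bp of the summit but outside the peak.
MSL1 upstream, chr17:40113384-40113449: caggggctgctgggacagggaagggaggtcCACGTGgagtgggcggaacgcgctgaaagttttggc
TBL1XR1 upstream, chr3:177359758-177359823: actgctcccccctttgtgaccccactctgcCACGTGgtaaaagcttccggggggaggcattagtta
PLEKHG6 upstream, chr12:6278430-6278495: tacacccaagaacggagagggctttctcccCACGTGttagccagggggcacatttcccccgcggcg
TNFRSF1A intron 1, chr12:6336232-6336297: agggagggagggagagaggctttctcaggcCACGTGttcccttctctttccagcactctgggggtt

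The second group shows the range among the E-box members of largest fold enrichment. The member in LPA holds an E-box in intronic sequence, and the peak upstream of APOD holds CACGTG inside a run of alternating CA.
LPA intron 6, chr6:160635542-160635607: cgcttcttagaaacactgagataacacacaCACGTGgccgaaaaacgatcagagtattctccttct
APOD upstream, chr3:195626494-195626559: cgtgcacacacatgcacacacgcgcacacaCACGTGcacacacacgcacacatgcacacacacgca

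The third group gives 81 bases around the summit for members with no CACGTG within 100 bp. They are the member of largest fold enrichment, at a U1 small nuclear RNA (snRNA) variant gene, and 2 members in simple repeats.
RNVU1-31 exon, chr1:145465646-145465726: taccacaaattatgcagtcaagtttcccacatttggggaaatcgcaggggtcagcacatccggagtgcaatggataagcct
TP53TG3B upstream, chr16:33336760-33336840: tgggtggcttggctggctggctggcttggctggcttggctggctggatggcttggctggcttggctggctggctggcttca
GUSBP2 intron, chr6:26884728-26884808: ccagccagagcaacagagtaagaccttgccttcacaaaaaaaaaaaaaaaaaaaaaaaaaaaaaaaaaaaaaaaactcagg

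Most members were peaks of few tags. The pileup, the number of tags stacked at the summit, had a median of 10, quartiles of 9 and 12, and a maximum of 116. A pileup of 10 tags has an exact Poisson 95% interval of 4.80 to 18.4 tags. Pileups of 10 or fewer made up 55.7% of members, and 13 or fewer made up 92.3%. The lowest pileup found at the genome-wide background was 7 tags in the AMG510 and IgG lists and 8 tags in the DMSO and trametinib c-MYC lists, and 220 members stood at 7 tags.

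Fold enrichment, the ratio of the summit pileup plus 1 to the background plus 1, was 4.31 at the median with quartiles of 3.87 and 4.79 and a range of 2.85 to 9.52. Values above 5 were reached by 1064 members, 14.9% (95% Wilson interval 14.1% to 15.8%), against 17.1% of all AMG510 non-promoter peaks. The median peak was 172 bp wide, close to the shortest width the caller wrote for this library, 157 bp. The caller's score, 10 times −log10 of the q-value, was above 60 in 108 members, or 1.51%. These values selected the peaks when they were called and are given as a description.

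AMG510 non-promoter peaks that did overlap a DMSO c-MYC peak were taller and wider, and few. There were 434 of them, with a median pileup of 17 tags, a median fold enrichment of 5.24 and a median width of 262 bp. Their score was above 60 in 47.5%. IgG non-promoter peaks outside DMSO c-MYC peaks, 2669 in number, had a median pileup of 10 tags, a median fold enrichment of 4.54 and a score above 60 in 1.69%. The plot of fold enrichment shows that members and IgG peaks shared their low range.

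The trametinib list, which the rule did not use, overlapped 64 members, or 0.897% (0.703% to 1.14%), where 11.6% of all AMG510 peaks overlapped it. The same list overlapped 249 of the 434 AMG510 non-promoter peaks shared with DMSO, or 57.4% (52.7% to 61.9%). IgG peaks selected in the same way overlapped trametinib c-MYC peaks in 1.01% (27 of 2669), and the difference between members and IgG peaks was -0.11 percentage points, with a 95% Newcombe interval of -0.61 to 0.29. The overlap of members was thus not distinguishable from that of peaks made without a c-MYC antibody. Both shares stood above the 0.0452% of all non-promoter windows of the genome, tiled at the motif window's length of 100 bp on either side of a center, that overlapped a trametinib peak.

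The IgG list overlapped 44 members, 0.617% (0.460% to 0.827%), against 1.99% of all AMG510 peaks and 36.2% of the 434 shared ones. Members overlapping both lists numbered 13, and 51 overlapped trametinib alone. A DMSO c-MYC peak lay within 1 kb of 112 members, 1.57%, and of 1.65% of the IgG peaks, a difference of -0.08 points (-0.70 to 0.44).

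**Figure D2:**
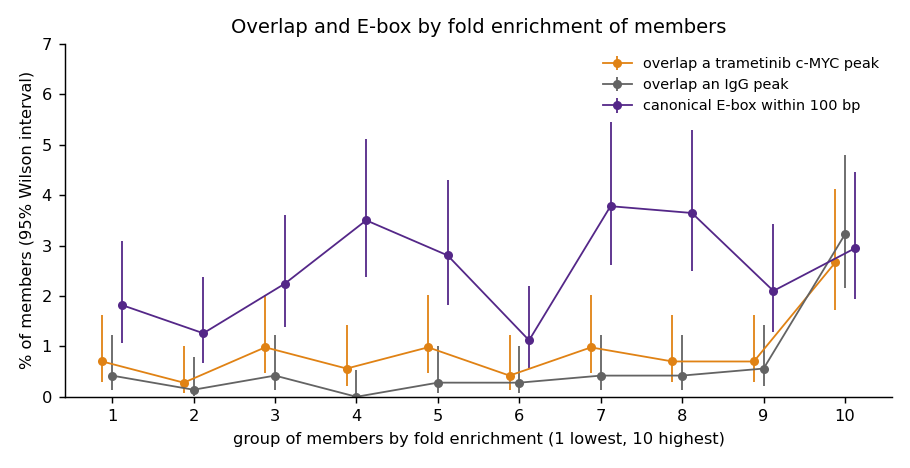
Percent of members (vertical axis, with 95% Wilson intervals) that overlapped a trametinib c-MYC peak (orange), overlapped an IgG peak (grey) or held a canonical E-box within 100 bp of the summit (purple), in 10 equal groups of the members ordered by fold enrichment (horizontal axis, 1 lowest). Both overlap shares stayed at 0.982% or less in groups 1 to 9 and stood at 2.66% and 3.23% in group 10. The E-box share ran unevenly from 1.82% in group 1 to 2.95% in group 10. It was lowest in group 6 (1.12%) and highest in group 7 (3.78%).

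Overlap with the other lists was uneven along the range of fold enrichment. Members were ordered into 10 equal groups. In the highest group, with fold enrichment from 5.35 to 9.52, 2.66% overlapped a trametinib peak and 3.23% an IgG peak. In the other groups the trametinib share ran from 0.280% to 0.982% and the IgG share from 0% to 0.560%. Among the 108 members with a score above 60, 16 overlapped trametinib (14.8%) and 17 overlapped IgG (15.7%). The same 108 members had 55.6% of summits outside genes, 18.5% on sequences outside chromosomes 1 to 22 and X, and 13.0% in tandem repeats, against 38.7%, 1.26% and 0.617% of all members. The highest members therefore stood out both for recurrence in trametinib and for recurrence in IgG.

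**Figure D3:**
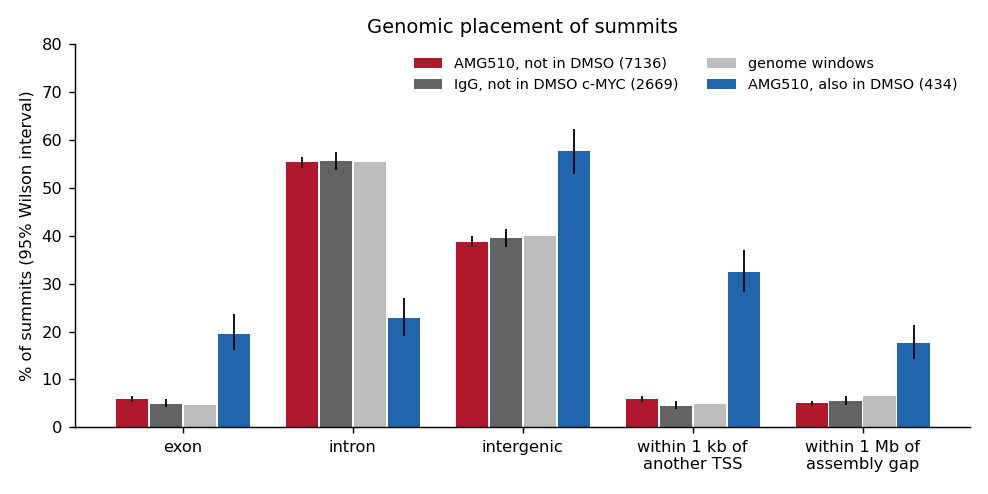
Percent of summits (vertical axis) in exons, introns and intergenic sequence, within 1 kb of an annotated TSS other than those the rule used, and within 1 Mb of an assembly gap of at least 50 kb, for members (red), IgG peaks (dark grey), windows over the whole non-promoter genome (light grey) and AMG510 peaks shared with DMSO (blue), with 95% Wilson intervals for peaks. Members lay within 1.5 points of IgG peaks in every class, whereas the shared peaks had more exon, intergenic, other-TSS and gap-near summits and fewer in introns.

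By gene annotation, the placement of members was not distinguishable from that of IgG peaks at this depth, whereas exons held more members than genome windows. Introns of any GENCODE gene held 55.4% of member summits (54.2% to 56.5%), 55.5% of IgG summits and 55.4% of the 14126112 non-promoter windows. Sequence outside genes held 38.7% of members, 39.5% of IgG peaks and 39.9% of windows. Exons held 5.91% of members (5.39% to 6.49%), 4.95% of IgG peaks and 4.77% of windows. The differences between members and IgG were -0.16 points for introns (-2.36 to 2.05), -0.81 for intergenic sequence (-2.99 to 1.35) and 0.97 for exons (-0.06 to 1.92), and each interval included 0. At a score above 60 the exon difference was 13.0 points with an interval of 3.599 to 20.6, which left out 0. That contrast set 108 members against only 45 IgG peaks, not against the full IgG set. Peaks shared with DMSO were placed differently, with 22.8% in introns, 57.6% outside genes and 19.6% in exons.

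Within protein-coding genes the canonical coding sequence held 92 members, 1.29%, and canonical untranslated regions held 82, 1.15%. The median distance to the nearest protein-coding TSS was 53618 bp, against 54564 bp for IgG peaks, and 82.4% of members lay more than 10 kb away. The zone from 1 to 2 kb, just beyond the promoter limit, held 143 members, 2.00%. Members on sequences outside chromosomes 1 to 22 and X were 1.26%, against 2.21% of IgG peaks, a difference of -0.95 points (-1.62 to -0.38). Tandem repeats held 0.617% of members and 1.20% of IgG peaks.

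Placement differed from IgG at other annotated transcript starts, which include lncRNA, pseudogene and small RNA genes as well as noncoding transcripts of protein-coding genes. Such a start lay within 1 kb of 420 members, 5.89%, of 4.57% of IgG peaks and of 4.87% of genome windows. The difference from IgG was 1.31 points (0.31 to 2.24). The other c-MYC lists stood higher, with 7.49% of trametinib non-promoter peaks outside DMSO and 9.62% of DMSO-only non-promoter peaks, those overlapping no AMG510 peak. Members minus these sets gave -1.60 points (-2.74 to -0.54) and -3.73 points (-4.77 to -2.73). Starts of lncRNA genes accounted for 148 members, noncoding transcripts of protein-coding genes for 144, processed pseudogenes for 50 and snRNA genes for 18. Among the 2669 IgG peaks, a smaller set than the 7136 members, 49, 49, 13 and 2 lay at these types.

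Recurrence in trametinib was more frequent at these starts. Of the 420 members near another start, 24 overlapped a trametinib c-MYC peak, 5.71% (3.87% to 8.36%), against 40 of the other 6716, 0.596% (0.438% to 0.810%), a difference of 5.12 points (3.26 to 7.77). An IgG peak overlapped 4 of the 420, 0.952%, and 40 of the other 6716, 0.596%. DMSO-only non-promoter peaks also overlapped trametinib more often near another start, in 39 of 433 cases (9.01%, 6.66% to 12.1%) against 65 of 4068 (1.60%, 1.26% to 2.03%), so the contrast was not particular to members. IgG peaks near another start overlapped trametinib in 4 of 122 cases, 3.28%, and the difference from members, 2.44 points, had an interval of -2.75 to 5.75, which does not separate the sets. Split by gene type, the recurrent members were 12 of 148 at lncRNA genes (8.11%, 4.70% to 13.6%), 6 of 18 at snRNA genes (33.3%, 16.3% to 56.3%), 1 of 144 at noncoding transcripts of protein-coding genes and 1 of 50 at processed pseudogenes, with the other 4 at starts of further types. The snRNA genes were singled out after their values were seen.

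The snRNAs are the RNA components of the spliceosome, which removes introns from messenger RNA, and several of their genes are repeated in near-identical copies, so that reads can be shared between copies. RNVU1-31, a U1 variant gene at 1q21, carried the member of largest fold enrichment of all 7136, chr1:145465456-145465821, with 22 tags and a fold enrichment of 9.52. The trametinib library had 12 tags and a fold enrichment of 5.20 there, and the nearest DMSO c-MYC peak was 40214 bp away. Another U1 variant gene, RNVU1-4 (chr1:120942585-120942759), had 11 tags under AMG510 and 18 under trametinib.

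Recurrent members at annotated U5 copies included those at RNU5D-1 and RNU5E-6P. At RNU5D-1 (chr1:44730587-44731152) the AMG510 pileup was 19 tags and the trametinib pileup 17, with the nearest DMSO peak 8249 bp away. The U5 pseudogene RNU5E-6P (chr1:44819782-44820011) had 11 and 16 tags. Both members lie within 100 kb of each other.

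RNU4ATAC, which encodes the U4atac RNA of the minor spliceosome, had a member of 12 tags at chr2:121530851-121531090 and 19 tags in trametinib. RNU4-1, a gene for the U4 snRNA, had a member of 16 tags (chr12:120293061-120293345) with no trametinib peak. RNVU1-18, a further U1 variant gene, had a member of 13 tags, also with no trametinib peak. A further 9 snRNA members with no trametinib peak had 8 to 16 tags. They were near annotated copies of U5, U6 and U7 genes, most of them named as pseudogenes, with summits 14 to 862 bp from the start. Of the 18 snRNA members, 2 lay within 1 kb of a DMSO c-MYC peak, among them the member near RNVU1-15 (chr1:144413059-144413229, 18 tags, not in trametinib), 191 bp away.

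Among lncRNA starts, MIR17HG, the host gene of an oncogenic miRNA cluster and a textbook MYC target, had a member of 14 tags at chr13:91348118-91348274 and 16 tags in trametinib. That member lay 12 bp from a DMSO c-MYC peak, so it was a member because the peak boundaries did not meet. MIRLET7BHG, host of let-7 family miRNAs, had 12 tags at chr22:46079968-46080222 and 11 in trametinib, and its nearest DMSO peak was 42014 bp away. LINC00886 (chr3:156816430-156816658) and THBS3-AS1 (chr1:155193883-155194120) had 16 and 19 tags, 15 and 18 in trametinib, with DMSO peaks 258 and 209 bp away. ROCK1P1 (chr18:109900-110072) had 20 tags under AMG510, 26 under trametinib and 21 in IgG. These genes were chosen after their values were seen, and they show both isolated members and members beside a DMSO peak.

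The canonical E-box lay within 100 bp of the summit of 180 members, 2.52% (2.18% to 2.91%), where 6.18% of all AMG510 peaks held it. It was found in 2.55% of IgG peaks, in 2.01% of windows 1 kb from the member summits and in 1.82% of non-promoter windows of the genome. The difference between members and IgG was -0.03 points (-0.78 to 0.64). Trametinib non-promoter peaks outside DMSO held it in 2.65%, and members minus that set gave -0.13 points (-0.86 to 0.52). The E-box share was 13.1% in AMG510 peaks shared with DMSO and 5.20% in the 4501 DMSO non-promoter peaks that were absent from the AMG510 list. The difference between members and that last set was -2.68 points (-3.44 to -1.95). DMSO non-promoter peaks absent from the AMG510 list thus held the site more often than members did.

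**Figure D4:**
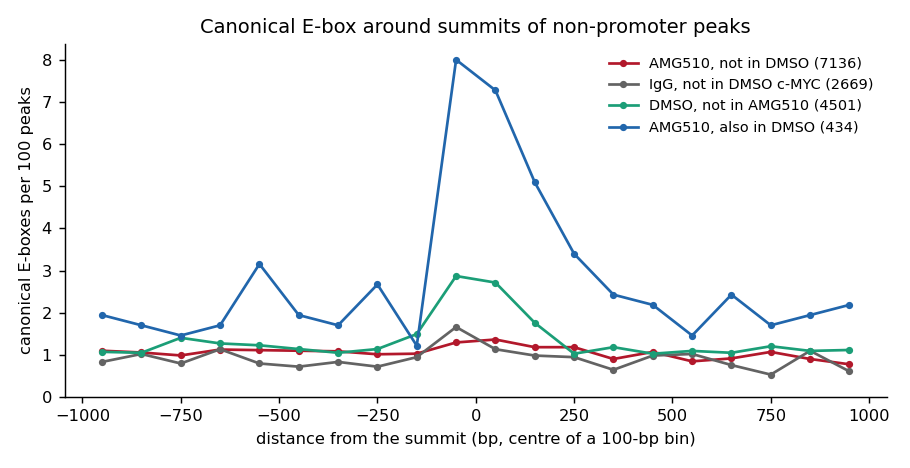
Number of CACGTG sites per 100 peaks (vertical axis) in 100 bp bins by distance from the summit (horizontal axis) for members (red), IgG peaks (grey), DMSO non-promoter peaks absent from AMG510 (green) and AMG510 peaks shared with DMSO (blue). Shared and DMSO-only peaks rise at the summit to 7.65 and 2.79 sites per 100 peaks per bin, while members reach 1.33 and IgG peaks 1.39.

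Around the summit the E-box profile of members rose less than that of the other c-MYC sets drawn. The 2 central bins of 100 bp held 1.33 sites per 100 members per bin, and bins 300 to 1000 bp away held 0.999, a ratio of 1.33. The ratio was 1.67 in IgG peaks, 2.45 in DMSO-only non-promoter peaks and 3.83 in AMG510 peaks shared with DMSO. In trametinib non-promoter peaks outside DMSO, which are not drawn, it was 1.38, so the low ratio was not particular to members. No interval was computed for these ratios, and the central bins held 189 sites in members and 74 in IgG peaks. IgG peaks had 1.39 sites per 100 peaks per bin at the center and 0.837 in the outer bins. The ratios of members and IgG peaks are therefore not ranked here. The 2.52% of members with the site had an interval above the 2.01% of windows 1 kb away. So did IgG peaks, with 2.55% (2.01% to 3.22%) against 1.73% of windows 1 kb from their summits.

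The lower-affinity form CACGCG, searched on both strands, was more frequent in members than in IgG peaks. It lay within 100 bp of 93 member summits, 1.30% (1.07% to 1.59%), of 0.412% of IgG summits and of 0.457% of genome windows, and the difference from IgG was 0.89 points (0.49 to 1.23). Of the other c-MYC sets it was held by 1.05% of trametinib non-promoter peaks outside DMSO, 3.18% of DMSO-only non-promoter peaks and 13.4% of AMG510 peaks shared with DMSO. Members minus the trametinib set gave 0.25 points (-0.25 to 0.67), and members minus the DMSO-only set gave -1.87 points (-2.48 to -1.32). Windows 1 kb from the member summits held it in 0.715%. Members were also richer in G and C, with a median GC content of 45.8% within 100 bp of the summit, against 42.3% in IgG peaks and 39.8% in genome windows. Because this motif holds 2 CpG dinucleotides, it was compared at like GC content. In windows of 60% GC or more, 44 of 458 members held it, 9.61% (7.23% to 12.7%), 3 of 101 IgG peaks, 2.97% (1.02% to 8.37%), 4.29% of genome windows and 17.2% of DMSO-only non-promoter peaks. The interval of members lay above the share of genome windows. It overlapped that of IgG peaks, which does not settle whether these shares differ, and no interval of their difference was computed at this GC content. In windows of 50% to 60% GC the shares were 1.85%, 0.971% and 1.32%, and in windows under 50% members stood at 0.482% or less. CACGTG at 60% GC or more was at 5.02% in members, 5.94% in IgG peaks and 5.08% in genome windows. From 50% to 60% GC these shares were 4.08%, 3.50% and 3.48%. They were 2.23%, 3.18% and 2.27% from 40% to 50% GC, and 1.03%, 1.26% and 0.939% under 40% GC.

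The members of 60% GC or more numbered 458, 6.42% of members against 3.78% of IgG peaks. Of them, 115 (25.1%) lay within 1 kb of another transcript start, 22 (4.80%) overlapped a trametinib peak and 37 (8.08%) lay within 1 kb of a DMSO c-MYC peak. Among the 101 IgG peaks of like GC content these counts were 12, 4 and 3. Their median pileup was 11 tags, little above that of all members. GC content also changes with amplification and sequencing, and its part in these counts was not tested.

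Other motifs did not set members apart from IgG peaks. The AP-1 site TGANTCA, a common feature of enhancers that respond to MAPK signaling, lay within 100 bp of 5.58% of member summits, 6.33% of IgG summits and 6.23% of genome windows. Any E-box of the form CANNTG, which includes CACGTG, was present in 67.1%, 65.6% and 64.8%. Each difference from IgG had an interval that included 0, -0.75 points (-1.87 to 0.27) for TGANTCA and 1.49 points (-0.60 to 3.61) for CANNTG. Against genome windows, the interval of members was lower for TGANTCA (5.07% to 6.13%) and higher for CANNTG (66.0% to 68.2%).

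**Figure D5:**
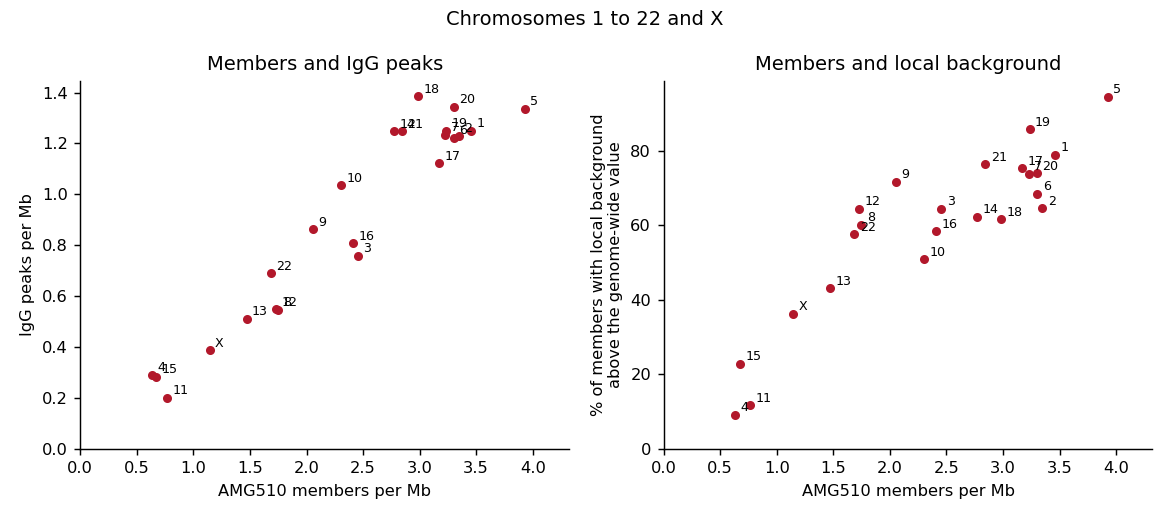
Each point is a chromosome, with members per Mb of sequence on the horizontal axes. On the left the vertical axis gives IgG peaks per Mb, and on the right the percent of members whose local background was above the genome-wide value. Chromosomes 4, 11 and 15 are lowest on every axis, and chromosome 5 had most members per Mb and the highest share above the genome-wide background, 94.4%.

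Members were spread unevenly over the chromosomes. Chromosomes 1 to 22 and X held 7046 members, 2.42 per Mb of sequence. Chromosome 5 had 3.93 per Mb and chromosome 1 had 3.46, while chromosome 4 had 0.63, chromosome 15 had 0.67 and chromosome 11 had 0.77. IgG peaks ran in parallel, with 1.34 per Mb on chromosome 5 and 0.29, 0.28 and 0.20 on chromosomes 4, 15 and 11. Over the 23 chromosomes Pearson's r between members and IgG peaks per Mb was 0.957 and Spearman's rho 0.885, as a description over chromosomes that share the cell line, its copy number and the mapping. Members ran as closely with the DMSO-only non-promoter peaks (r 0.948) and with trametinib non-promoter peaks outside DMSO (r 0.964), and less closely with AMG510 peaks shared with DMSO (r 0.510).

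The local background, taken here as the estimate from tags around the peak in the same library, moved with this order. It was above the genome-wide value at 67.5% of members, with a median of 1.06 times that value, and at 72.9% of IgG peaks. On chromosome 5 it was above at 94.4% of members and 95.9% of IgG peaks. On chromosome 4 the shares were 9.17% and 16.4%, and on chromosome 11 they were 11.7% and 18.5%. Chromosomes 4 and 11 were thus low and chromosome 5 high in members, in IgG peaks and in local background alike, and the part of tag density in the number of members was not tested.

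At the scale of 1 Mb the order was looser. Of 2875 windows with at least 900 kb of known sequence, 595 held no member, the median was 2 and the maximum 11. The windows with 11 were on chromosome 2 from 173 to 174 Mb and on chromosome 5 from 34 to 35 and from 142 to 143 Mb. They held 3, 4 and 0 IgG peaks and 2, 4 and 2 DMSO-only non-promoter peaks. Windows with no member had a mean of 0.334 IgG peaks, and windows with 5 to 8 members had 1.26. The variance of member counts was 1.70 times their mean, and 1.28 times for IgG. Another member lay within 10 kb of 396 members, 5.55%, and the median distance to the nearest member was 113495 bp.

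The members of largest fold enrichment were at small RNA genes, pseudogenes, repeats and intergenic sequence. After RNVU1-31 came a member in an intron of the pseudogene GUSBP2 (chr6:26884690-26884874, 20 tags, 8.69-fold), whose summit window holds a long run of A. The next, on chromosome 13 at 16008247 to 16008605, had 23 tags under AMG510, 18 under trametinib and 14 in IgG. A member in intron 17 of ATP9B, a phospholipid flippase gene, lay in a tandem repeat (chr18:79335990-79336180, 20 tags, 7.88-fold). Members near FAM72C (chr1:144077394-144077646) and ANKRD62 (chr18:12076380-12076830, at the start of the pseudogene ADGRA3P1) had 18 tags each and overlapped trametinib peaks of 8 and 12 tags.

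The other members among the 10 largest were upstream of RABL2A (chr2:113604050-113604486), in intron 3 of LINC01237 (chr2:242009047-242009224), in exon 1 of AHSA2P (chr2:61177489-61177691) and near RNVU1-15. They had 18 to 20 tags and no trametinib or IgG overlap. None of the 10 held a canonical E-box within 100 bp of the summit. Some of the largest overlaps with IgG repeated between lists at the same places, such as the tandem repeat upstream of TP53TG3B printed above (chr16:33336706-33336917), with 25 tags under AMG510, 14 under trametinib and 23 in IgG. In intron 8 of TBC1D5 (chr3:17402063-17402302) AMG510 had 16 tags and IgG 11.

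E-box members had the same median pileup as all members, 10 tags, and a median fold enrichment of 4.49, against 4.31 in all members. The largest was in intron 6 of LPA, the apolipoprotein(a) gene, at chr6:160635489-160635684, with 17 tags and 7.45-fold enrichment, but trametinib and IgG peaks lay 498 and 506 bp away and a DMSO c-MYC peak 401 bp away. An isolated one was found in intron 5 of COMMD10 (chr5:116256761-116256939, 14 tags). In PDE10A, a phosphodiesterase gene, a member had 18 tags (chr6:165726917-165727093), and in TNRC6B, a gene of miRNA-mediated silencing, 14 tags (chr22:40119355-40119539). The peak in the CA repeat upstream of APOD (chr3:195626447-195626616) had 15 tags under AMG510 and 16 in IgG.

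Only 4 of the 64 members recurrent in trametinib held CACGTG, 6.25% (2.46% to 15.0%). Upstream of MSL1, a gene for a subunit of a histone acetyltransferase complex (chr17:40113431-40113640) the pileup was 15 tags under AMG510 and 19 under trametinib. Upstream of TBL1XR1, a gene for a transcriptional corepressor subunit, it was 12 and 14 tags (chr3:177359707-177359885), with a DMSO c-MYC peak 192 bp away. Upstream of PLEKHG6 it was 15 and 23 tags (chr12:6278419-6278893). In intron 1 of TNFRSF1A, which encodes a receptor of the cytokine TNF, it was 13 and 15 tags (chr12:6336171-6336413), and the nearest DMSO peak was 47522 bp away. None of these 4 overlapped an IgG peak, and in each of them the trametinib pileup was the larger of the pair.

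Genes of the pathways the study followed held members in shares of 9.09% to 15.4%, around that of all protein-coding genes. Of 20046 protein-coding genes, 2466 (12.3%) had a member summit in the gene body and 31.5% had one within 50 kb. In lipid synthesis, 2 of 13 genes had one in the gene body. In SPTLC2, a subunit of the enzyme that starts sphingolipid synthesis, a member lay in the untranslated part of exon 12 (chr14:77511929-77512132, 12 tags, 4.44-fold). In FASN, the fatty acid synthase gene, a member lay in the coding part of exon 25 (chr17:82085038-82085194, 11 tags, 4.28-fold), and DMSO and trametinib peaks were 12393 and 13835 bp away. Neither held an E-box within 100 bp of the summit.

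The other lists held 1 or 2 genes with a member. Of 10 MYC target genes 1 had a member, TERT, the catalytic subunit of telomerase, in intron 2 (11 tags). Of 16 genes of ERK feedback and output 2 had one, SPRED2, an inhibitor of the pathway, in intron 1 (12 tags, 5.38-fold) and ETV5, an ETS factor, in intron 5 (10 tags). Of 11 lysosome and PIKfyve complex genes 1 had one, FIG4, the phosphatase of that complex, in intron 10 (12 tags). Of 10 MYC network genes 1 had one, MNT, a MAX-binding repressor, in intron 4 (12 tags, 3.47-fold), 228 bp from a DMSO c-MYC peak. None of these members overlapped a trametinib or IgG peak.

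Very long genes nearly all held members, at a density no higher than that of other genes. Of 12 very long genes, 11 had members, 39 in all, or 1.82 per Mb, where all protein-coding genes had 2.43 per Mb. IgG peaks in the same long genes came to 0.888 per Mb, and to 0.873 over all genes. Among the genes with most members were MACROD2, with 9, CNTNAP2 and NLGN1, both with 8, and LRMDA, RABGAP1L and RUNX1, with 7 each. Each of these spans 836 to 2305 kb. RUNX1, which encodes a transcription factor, also held 2 IgG peaks and 1 DMSO-only peak, MACROD2 held 4 IgG peaks, and NLGN1, a gene of a synaptic adhesion protein, held none of either.

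At the limits of the rule, peaks on either side had similar values. The 5 members nearest to the promoter limit, at POC1B-GALNT4, LAPTM5, GCNT4, PPP2R2B and MPC1, lay 1001 to 1012 bp from a TSS with fold enrichments of 3.31 to 5.22. The 5 peaks just excluded, at ATOH1, CSRP1, DCBLD1, EPS8L1 and RELL1, lay 978 to 1000 bp away with 4.14 to 5.02. At the overlap limit, 5 members lay 0 to 6 bp from a DMSO c-MYC peak with fold enrichments of 4.28 to 6.16, and 5 excluded peaks shared 2 to 21 bp with one and had 3.99 to 5.49.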

How the data were processed

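c-MYC ChIP-seq peaks were analysed in MIA PaCa-2 cells (4 libraries, 1 per group; groups from the sample titles). Per the study's methods, reads were trimmed (Trimmomatic 0.39), aligned to GRCh38 with bwa 0.7.17, kept at mapping quality 20 or more, freed of duplicates and called with MACS2 2.2.7.1 at q 0.05, and peaks on the ENCODE exclusion list were removed. The deposited lists hold a score, a fold enrichment (a ratio of pileup plus 1 to background plus 1), a −log10 p-value and a −log10 q-value per peak, made by the authors with 1 list per library. The methods do not state whether a control library was used, and each list was treated here as called against its own background. Pileups and backgrounds were solved from the deposited fold enrichment and −log10 p-value, and whole pileups were found for 100% of peaks. Chromosome names were checked against GRCh38. Genes came from GENCODE version 44. Summits were compared by position, overlap meant at least 1 bp, and motifs were searched within 100 bp of the summit. The IgG and genome-window comparisons used the same promoter limit, and IgG peaks also overlapped no DMSO c-MYC peak. Shares carry Wilson intervals and differences Newcombe intervals (95%). With 1 library per group no p-value was computed. Code was tested on simulated data.

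Members and gene lists were chosen with earlier results of these data known. Named genes are the 10 members of largest fold enrichment, likewise among those overlapping trametinib, overlapping IgG or holding CACGTG, the 10 genes with most members, each listed gene with a member, and 5 members on each side of both limits. Members on unplaced contigs and 1 list entry past a contig end per list were kept but are not named. A few items that the naming rule selects are not reported here. Alternatives were thresholds, overlap rules, promoter limits, transcript sets and motif windows. Python 3.11.15, numpy 2.4.6, pandas 2.3.3 and scipy 1.17.1 were used.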

Additional observations from a re-analysis of the deposited data

How the results depend on the processing

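No paired analysis was possible because no group was replicated, and for the same reason no replicate could be left out. Of 69 alternatives over 12 results, 46 stayed within the counting interval or spread of the reported value and 23 moved beyond it. At a score above 60 there were 108 members, of which 14.8% overlapped trametinib, 15.7% overlapped IgG and 4.63% held CACGTG. Their median fold enrichment was 6.46 and their median pileup 17. The differences from the 45 IgG peaks above that score were -11.1 points (intergenic), 13.0 (exon) and 2.41 (CACGTG). The intergenic interval (-26.3 to 6.05) and the CACGTG interval (-7.30 to 8.44) included 0. The exon interval (3.599 to 20.6) left out 0, unlike that of all members. At a fold enrichment above 5 there were 1064 members, with 2.16%, 2.44% and 2.91% for the same shares and medians of 5.38 and 13 tags. Their CACGTG difference was 1.25 points, with an interval that included 0 (-0.30 to 2.65), and the r over chromosomes was 0.735. Without members within 1 kb of a DMSO c-MYC peak, 0.655% overlapped trametinib and 0.413% IgG, and counting lists as shared within 1 kb gave 1.74% and 1.15%. On chromosomes 1 to 22 and X alone, an alternative chosen after seeing the data, 0.397% overlapped IgG. Searching CACGTG or CACGCG gave a difference of 0.84 points from IgG (0.02 to 1.58), which left out 0, unlike that of CACGTG alone. The CACGCG and other-start differences were not recomputed under these alternatives. The cause of these moves was not tested beyond the smaller sets. At a median of 10 tags per member, depth limits what any single member can show.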
